A study of Arabidopsis thaliana with 22 samples.

Results

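Pol IV occupancy in zmp-2 plants was compared with that in WT plants over peak lists of 4 immunoprecipitated libraries, 2 from zmp-2 NRPD1-HA plants and 2 from WT NRPD1-HA plants, out of 22 samples in the series, of which 11 have a peak list. The members were the peaks of these 4 lists on chromosomes 1 to 5. Peaks that shared at least 1 base were merged into 9269 regions, and 4464 of these held a peak in all 4 lists and could be measured in both backgrounds. Both groups were Col-0 inflorescences that carried the pNRPD1::NRPD1-HA transgene, in which NRPD1 with an HA tag is expressed from its own promoter, and chromatin was precipitated with an anti-HA antibody after crosslinking. The zmp-2 plants also carried a T-DNA insertion in ZMP (AT5G63700), and the WT plants did not. The rest of the series holds inputs, NRPD1-HA controls without a transgene (set A), a separate ZMP-HA experiment (set B) and 1 H3K4me3 library. The study asked with these libraries whether loss of ZMP changes where Pol IV sits on chromatin. The series' design text calls the 2 libraries of a genotype biological replicates and gives no more on their origin, so p-values below measure the spread between these libraries only.

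Pol IV is a plant-specific RNA polymerase with NRPD1 as its largest subunit. It transcribes transposons and other repeats into short precursors, which RDR2 makes double-stranded and DCL3 cuts into small interfering RNAs (siRNAs). These siRNAs guide DNA methylation back to matching DNA, a process called RNA-directed DNA methylation (RdDM), which silences transposons in gene-poor chromatin around centromeres and in the chromosome arms, where they often lie beside genes. ZMP is annotated as a protein that binds zinc and DNA.

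The DNA under the summits of 4 regions is given first, because these regions changed strongly between the backgrounds while the 4 lists placed their summits within 39 to 90 bases of each other. Each line shows 140 bases of the plus strand from RefSeq TAIR10.1, whose nuclear chromosomes have the TAIR10 coordinates of the lists. Capitals mark the bases from the leftmost to the rightmost of the 4 summits. All 4 stretches lay outside annotated exons and matched the genome at 1 place, counting matches of at least 95% identity. The first lay between the divergent 5′ ends of the F-box gene AT3G28330 and the uncharacterized gene AT3G28335, and the next upstream of KOR2 (AT1G65610), which encodes an endoglucanase of the cell wall. Pol IV enrichment was higher in zmp-2 at both.
chr3:10587761-10587900 (higher in zmp-2): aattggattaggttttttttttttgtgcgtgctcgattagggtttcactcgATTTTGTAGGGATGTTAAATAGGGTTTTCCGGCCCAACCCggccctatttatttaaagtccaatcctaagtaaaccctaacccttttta
chr1:24395794-24395933 (higher in zmp-2): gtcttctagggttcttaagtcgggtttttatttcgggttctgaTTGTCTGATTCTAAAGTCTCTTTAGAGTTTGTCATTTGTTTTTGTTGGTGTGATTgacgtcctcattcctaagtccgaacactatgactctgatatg
The other pair had lower enrichment in zmp-2. The stretch on chromosome 3 lay upstream of the lncRNA gene AT3G08135, downstream of which DWF4 (AT3G50660), the gene of a brassinosteroid hydroxylase, ends on the minus strand. The stretch on chromosome 1 lay upstream of AT1G29179, which encodes a C1 domain protein.
chr3:18812338-18812477 (lower in zmp-2): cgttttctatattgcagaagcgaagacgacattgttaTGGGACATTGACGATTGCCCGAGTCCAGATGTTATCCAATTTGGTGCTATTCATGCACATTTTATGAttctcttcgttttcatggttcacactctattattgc
chr1:10196982-10197121 (lower in zmp-2): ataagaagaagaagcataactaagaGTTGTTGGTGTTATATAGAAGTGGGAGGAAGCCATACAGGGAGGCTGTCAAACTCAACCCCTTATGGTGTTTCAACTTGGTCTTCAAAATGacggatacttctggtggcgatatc

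The lists held 7012 and 8655 peaks in zmp-2, and 7250 and 7518 peaks in WT (replicates 1 and 2). The fold enrichment of a peak is the authors' ratio of fragment pileup at the summit to the local background. The background shared by most peaks, which stands here for depth, was 26.6 and 38.7 fragments in zmp-2 and 25.02 and 41.0 fragments in WT. Replicates 2 were thus deeper than replicates 1 in both backgrounds, and depth went with replicate number, not with genotype. Median peak width was 707 and 843 bases in zmp-2, against 801 and 886 bases in WT. For this reason each comparison of backgrounds below is set beside the split of the same 4 lists by replicate number. With 2 libraries against 2, an exact permutation test cannot go below p = 0.333, so single values per library were described without a test.

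Over the 4464 regions with a peak in all 4 lists, libraries of the same background had the most similar enrichment. Pearson's r of log2 fold enrichment over these regions was 0.895 between the zmp-2 libraries and 0.885 between the WT libraries. It was 0.836 and 0.838 between libraries that shared only the replicate number, and 0.760 and 0.754 between libraries that shared neither. Both background and replicate number were therefore visible in the enrichment values, with background the closer tie. Width followed another order. For log2 covered bases, r was 0.857 within zmp-2 and 0.926 within WT, against 0.869 and 0.930 for libraries with the same number and 0.806 and 0.889 for libraries that shared neither. Over all kept regions, summits lay about as close between backgrounds at the same replicate number as within backgrounds. The median distance between the highest summits of a region was 51 bases within each background and 46 and 45 bases between backgrounds at the same replicate number. Summits lay more than 200 bases apart in 19.0% and 20.9% of regions between backgrounds at the same number, and in 22.2% and 22.7% within backgrounds.

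The change of enrichment (zmp-2 minus WT) was measured on the log2 scale after the 4 distributions were made equal (quantile normalization), with limma across all 4464 regions and Benjamini-Hochberg adjustment at 0.05. Enrichment was higher in zmp-2 in 29 regions (0.65%) and lower in 65 regions (1.46%). At an unadjusted p under 0.05 there were 355 higher and 428 lower regions. The same test of replicates 2 against replicates 1 called 0 regions (0%), with 623 at an unadjusted p under 0.05. Fold enrichment of both zmp-2 libraries was above that of both WT libraries in 1070 regions (24%) and below it in 926 regions (20.7%), after normalization. The change in replicates 1 and the change in replicates 2 had the same sign in 73.4% of regions, and their r over regions was 0.795. The change from replicates 1 to replicates 2 was nearly as alike in zmp-2 and in WT, with r = 0.713. When the numbers were crossed, so that each difference took libraries with unlike depth, r was 0.198. The number of calls depended on a single library. Without zmp-2 replicate 2, limma called 0 of 4633 regions, with 499 at an unadjusted p under 0.05. Leaving out zmp-2 replicate 1 gave 16 higher and 60 lower regions. There were 11 higher and 37 lower regions when WT replicate 1 was left out, and 9 and 19 when WT replicate 2 was. Centring each list on its median in place of quantile normalization gave 32 higher and 168 lower regions, among them 24 of the 29 and 65 of the 65.

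**Figure D1:**
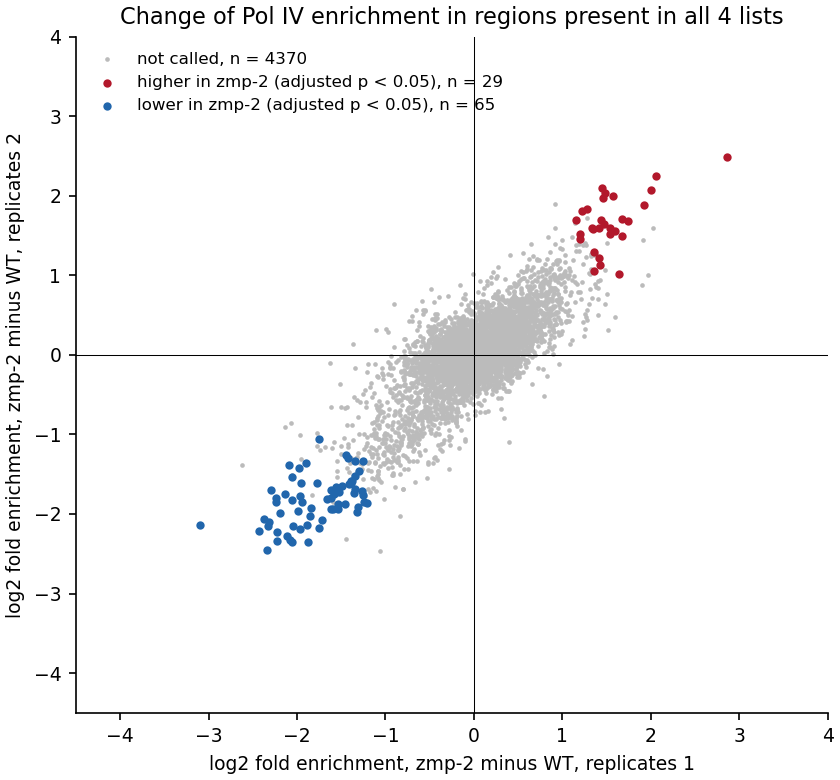
Change of log2 fold enrichment (zmp-2 minus WT, quantile-normalized) in 4464 regions, with replicates 1 on the x axis and replicates 2 on the y axis. Each point is a region. The 29 regions called higher and the 65 called lower in zmp-2 lie in the upper right and lower left corners, and r over all regions was 0.795.

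The largest rise was between AT3G28330 and AT3G28335 (chr3:10587387-10588760), the region of the first sequence above. Its fold enrichment was 19.0 and 22.3 in zmp-2, against 5.00 and 4.52 in WT. Both zmp-2 libraries were far above both WT libraries. The log2 change was +2.68 ± 0.23 (SE) by limma, adjusted p = 0.0186 (Benjamini-Hochberg), and +2.11 before normalization. This region overlapped a peak of a control list without a transgene, as did those at AT1G24967, AT5G34842, AT5G29070 and AT5G34870 below. The region at the 5′ end of KOR2 (chr1:24395492-24396173) had a fold enrichment of 8.69 and 12.3 in zmp-2, against 2.84 and 2.24 in WT. It rose by 2.15 ± 0.24, adjusted p = 0.0186 (limma). Its rank within the list also differed. The percentile by fold enrichment (higher for stronger peaks) was 93.8 and 95.7 in zmp-2 and 33.4 and 28.3 in WT.

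The other rises named by the rule lay in chromosome arms, mostly at single genes. In the region over the 3′ part of AT1G12020 (chr1:4061205-4062109), fold enrichment was 11.8 and 15.8 in zmp-2, against 4.22 and 3.36 in WT (log2 change +2.04 ± 0.23). A region downstream of OSB1 (chr1:17560554-17561214), the gene of an organellar protein that binds single-stranded DNA, had values of 9.53 and 15.6 in zmp-2, against 3.38 and 3.81 in WT (+1.90 ± 0.28). Separation of the groups after normalization was a condition of naming these regions. The region over AT1G59835 (chr1:22024518-22025461), annotated as similar to the largest subunit of Pol II, had 10.4 and 13.9 in zmp-2, against 5.19 and 2.83 in WT (+1.77 ± 0.29). At the 5′ end of AT1G63630 (chr1:23586223-23587083), which encodes a tetratricopeptide repeat protein, the values were 6.92 and 14.0 in zmp-2, against 3.31 and 3.0 in WT (+1.76 ± 0.30). At the 5′ end of YLS9 (chr2:15109841-15110623), which encodes a membrane protein induced in senescence and defence, they were 7.03 and 11.2 in zmp-2, against 3.42 and 2.40 in WT (+1.72 ± 0.26). These regions were 661 to 944 bases wide. The exception was a block of 12829 bases over the pseudogene AT1G24967 and 2 neighbours (chr1:8785694-8798522), with 14.2 and 22.0 in zmp-2, against 7.75 and 6.17 in WT (+1.78 ± 0.24). The sequence at its strongest summit occurs 5 times in the genome. Adjusted p of these 6 regions was 0.0186 to 0.0382 (limma, Benjamini-Hochberg).

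The largest fall was over the pericentromeric pseudogene AT3G42305 and the neighbouring gene AT3G42310 (chr3:14456322-14463189). Fold enrichment was 2.21 and 4.84 in zmp-2, against 26.3 and 21.5 in WT. Both WT libraries ranked this region at a percentile of 97.9, while it stood at 20.4 and 67.1 in the zmp-2 libraries. It fell by 2.62 ± 0.33 on the log2 scale (limma, adjusted p = 0.0212). Over the pericentromeric pseudogene AT5G34842 (chr5:13015690-13032188), fold enrichment was 2.00 and 2.52 in zmp-2, against 12.8 and 12.7 in WT (log2 change -2.40 ± 0.27, adjusted p = 0.0186). The remaining named falls were in the arms. Over the 5′ part of AT1G22120 (chr1:7808124-7811655), which encodes an uncharacterized protein, the values were 3.44 and 5.11 in zmp-2, against 27.8 and 25.9 in WT (-2.32 ± 0.23). Over AT2G04060 (chr2:1341178-1350666), which encodes a glycosyl hydrolase, they were 2.68 and 3.45 in zmp-2, against 17.4 and 16.2 in WT (-2.28 ± 0.24). In all of these the WT libraries agreed closely and the zmp-2 libraries lay far below them.

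Between AT4G23680 and the 5′ end of AT4G23670, a pair of genes annotated as lipid transport proteins (chr4:12334284-12336164), fold enrichment was 2.86 and 5.04 in zmp-2, against 20.5 and 22.6 in WT (-2.24 ± 0.28). At the pseudogene AT2G14843 (chr2:6375401-6380882) it was 3.77 and 4.41 in zmp-2, against 26.8 and 21.0 in WT (-2.23 ± 0.23). Within AT1G20290 (chr1:7025706-7027866), annotated as a gene of a protein related to SWI-SNF chromatin remodellers, it was 4.88 and 7.48 in zmp-2, against 43.5 and 41.2 in WT (-2.22 ± 0.22). At the 3′ end of DWF4 and the lncRNA gene AT3G08135 (chr3:18810860-18814118) it was 3.95 and 7.38 in zmp-2, against 30.7 and 41.3 in WT (-2.21 ± 0.27). Adjusted p of these 4 falls was 0.0186 or 0.0212 (limma, Benjamini-Hochberg). That the groups did not overlap after normalization was part of the rule that named them. Upstream of AT1G29179 (chr1:10196192-10198308), whose sequence is given above, fold enrichment was 4.93 and 7.86 in zmp-2, against 36.0 and 41.1 in WT (-2.09 ± 0.22, adjusted p = 0.0186). All of these regions kept a called peak in both zmp-2 lists, so a count of presence and absence does not show their change. The 16 rises and falls named by the rule all failed the threshold when zmp-2 replicate 2 was left out.

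**Figure D2:**
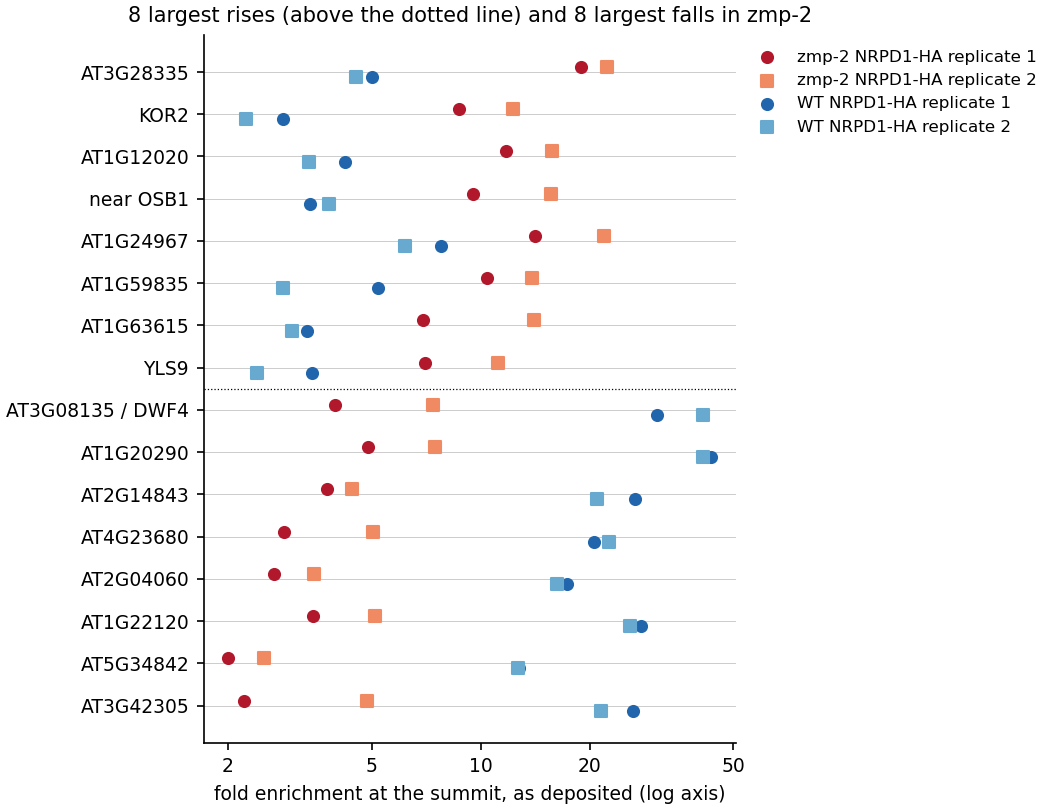
Deposited fold enrichment (log axis) in each of the 4 libraries for the 8 largest rises, above the dotted line, and the 8 largest falls, below it. In each row the 2 zmp-2 libraries lie on the same side of the 2 WT libraries, which the naming rule required after normalization. For AT3G28335 the values are 19.0 and 22.3 in zmp-2, against 5.00 and 4.52 in WT.

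Regions that rose and regions that fell were of different kinds. The 29 that rose had a median merged width of 861 bases, against 4585 bases for the 65 that fell and 1459.5 bases for all 4464. Of the 29, 2 (6.90%) were pericentromeric, 21 (72.4%) lay within 500 bases of a protein-coding 5′ end and 3 (10.3%) overlapped a pseudogene. Of the 65, 22 (33.8%) were pericentromeric, 31 (47.7%) lay near a 5′ end and 27 (41.5%) overlapped a pseudogene. Among all 4464 these shares were 22.7%, 45.3% and 31.9%. ZMP sites, which are the 4709 regions with a peak in both ZMP-HA libraries and in neither set B control, overlapped 8 of the 29 (27.6%) and 43 of the 65 (66.2%), against 53.9% of all 4464. Width moved with enrichment in these regions: covered bases in zmp-2 were above those in WT in 29 of 29 that rose and in 3 of 65 that fell, against 2736 of all 4464, after normalization. The regions that rose stood at a median percentile of 94.2 and 96.8 in zmp-2, against 59.3 and 56.0 in WT, and those that fell at 58.7 and 67.1 in zmp-2, against 96.6 and 97.4 in WT. These percentiles rank the same fold enrichment by which the regions were selected, so their difference follows from the selection. A tested region also had to keep a peak in all 4 lists, which leaves large falls to regions strong in WT. The 4 summits of a region spanned a median of 45 bases in the 29 and 221 bases in the 65, against 122 bases in all 4464. The span was over 1000 bases in 1 of the 29, 20 of the 65 and 784 of all, so there the libraries' values can come from different peaks. Among the 16 regions named by the rule, the longest spans were 4073 bases at AT1G24967, 3755 at AT2G04060 and 1845 at AT5G34842. The summit sequence was single-copy in 26 of 29 and 61 of 65, against 74.5% of all. The local background was within 5% of the library's usual value in all 4 libraries in 26 of 29 (89.7%) and 56 of 65 (86.2%), close to the 82.1% of all 4464, so in most called regions the ratio differed through the pileup. Peaks of the controls without a transgene overlapped 2 of the 29, 6 of the 65 and 7.30% of all. No test was run on these shares.

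Within the called regions, the scale of the change bore on the rises more than on the falls. The number of calls moved the other way. Median centring gave 32 rises against 29, but 168 falls against 65. Before normalization the log2 change was 0.29 to 2.11 in the regions that rose (median 1.39) and -2.87 to -1.39 in those that fell (median -2.04). The libraries were separated without normalization in 28 of 29 rises and 65 of 65 falls. The lists differed at their strong end, where the 99th percentile of fold enrichment over kept regions was 50.4 and 106 in zmp-2, against 130 and 154 in WT. Quantile normalization therefore enlarged rises in very strong regions. At the SAUR auxin-response gene AT2G16580 (chr2:7181860-7185775), fold enrichment was 75.2 and 131 in zmp-2, against 67.6 and 94.1 in WT, and the groups overlapped before normalization. Its log2 change was +1.33 ± 0.20 (limma, adjusted p = 0.0323) but +0.33 with median centring, adjusted p = 0.831. This region was chosen after its values were seen.

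Over all kept regions, with the called ones included, the change had a position along the chromosome. The pericentromeric windows, defined by low gene density, spanned 17.2 Mb, or 14.4% of the 5 chromosomes. The median log2 change was -0.12 over 1012 pericentromeric regions and +0.09 over 3452 arm regions, a contrast of -0.21 (-0.27 in replicates 1 and -0.18 in replicates 2, SD 0.06, n = 2 pairs). The same contrast for replicate 2 minus replicate 1 was +0.01 in zmp-2 and -0.03 in WT. Before normalization the medians were -0.19 and +0.01. The pairs differed in level there, with an unnormalized median over all regions of -0.35 in replicates 1 and +0.27 in replicates 2. With median centring the pericentromeric and arm medians were -0.17 and +0.02. The size of the arm median thus depended on the scaling more than the contrast did. The pericentromeric median was below the arm median on each of the 5 chromosomes in both pairs. The change was -0.24 and -0.13 within 1 Mb of the window's centre, -0.07 and -0.07 from 1 to 2 Mb, and +0.12 and +0.13 from 3 to 4 Mb, in replicates 1 and 2. Beyond that distance it stayed level. The contrast was -0.14 where the highest peaks had to overlap by 50%, and -0.28 without WT replicate 2.

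**Figure D3:**
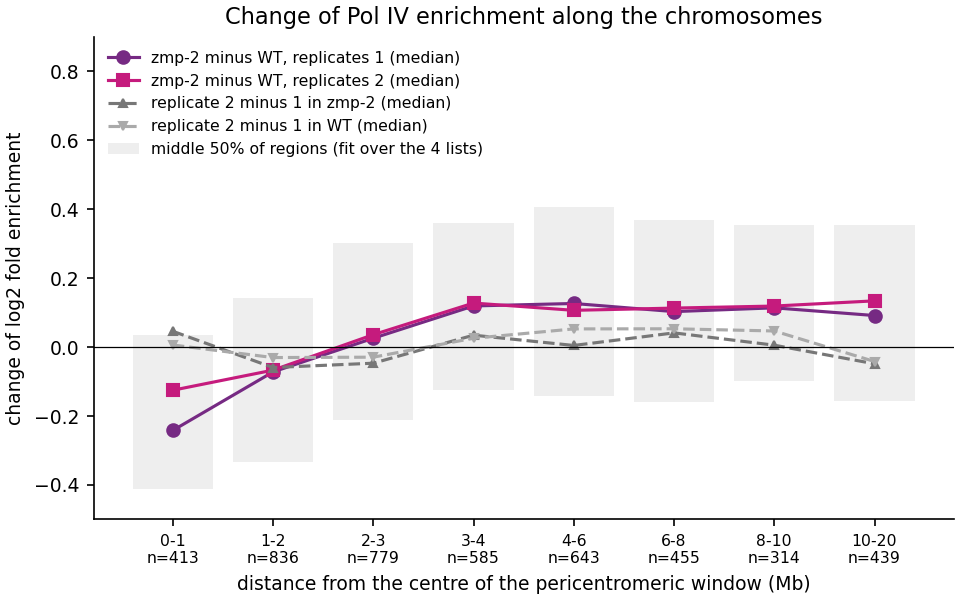
Median change of log2 fold enrichment (quantile-normalized) by distance from the centre of the pericentromeric window in Mb, for zmp-2 minus WT in replicates 1 and replicates 2 (solid) and for replicate 2 minus replicate 1 within each background (dashed). Bars span the middle 50% of regions in the fit over 4 lists. Both solid lines are below 0 within 2 Mb and above 0 from 3 Mb on.

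Wide regions, and regions with a ZMP site or a pseudogene, had a lower median change when each feature was taken alone. In the arms the median was +0.22 for 1718 regions without a ZMP site (+0.25 and +0.21 in the 2 pairs), against -0.04 for 1734 regions with a site (-0.04 and -0.01). In pericentromeric windows it was -0.19 for 671 regions with a site and +0.02 for 341 without. Pseudogenes, taken by the biotype of the annotation without a check for transposon genes, divided the regions in the same way. The median was -0.20 for 608 pericentromeric regions over a pseudogene and -0.01 for 404 without, and -0.06 for 815 arm regions over a pseudogene and +0.15 for 2637 without. Width went with both. Arm regions over 600 and up to 1000 bases had a median of +0.32 (n = 1132, 19 called higher and 0 lower), and those over 5000 bases a median of -0.14 (n = 341, 1 higher and 12 lower). Pericentromeric regions over 5000 bases had a median of -0.34 (n = 253, 0 higher and 19 lower). Within arm regions over 600 and up to 1000 bases, those with a ZMP site had a lower median than those without, +0.25 against +0.36. The order by ZMP site did not hold in every width class. It was turned in arm regions of up to 600 bases (+0.41 in 7 regions with a site and +0.27 in 99 without) and of over 5000 bases (-0.13 in 318 and -0.29 in 23), and in pericentromeric regions of over 5000 bases (-0.32 in 231 and -0.59 in 22). In arm regions over 2500 and up to 5000 bases it was turned by little (-0.104 in 355 with a site and -0.114 in 120 without). Width, ZMP sites and pseudogenes overlap as features (the arm regions with both a ZMP site and a pseudogene had a median width of 4415.5 bases), and these values do not separate them. Regions with an H3K4me3 peak on them, a mark of active gene starts measured in 1 WT library, had a median of -0.25 in pericentromeric windows (n = 228) and +0.01 in the arms (n = 526). Those without such a peak had -0.09 (n = 784) and +0.10 (n = 2926). Regions with the mark were also wider. Their median width was 4587 against 2098.5 bases in the windows and 2144 against 1213 bases in the arms. Mark and width were not separated.

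**Figure D4:**
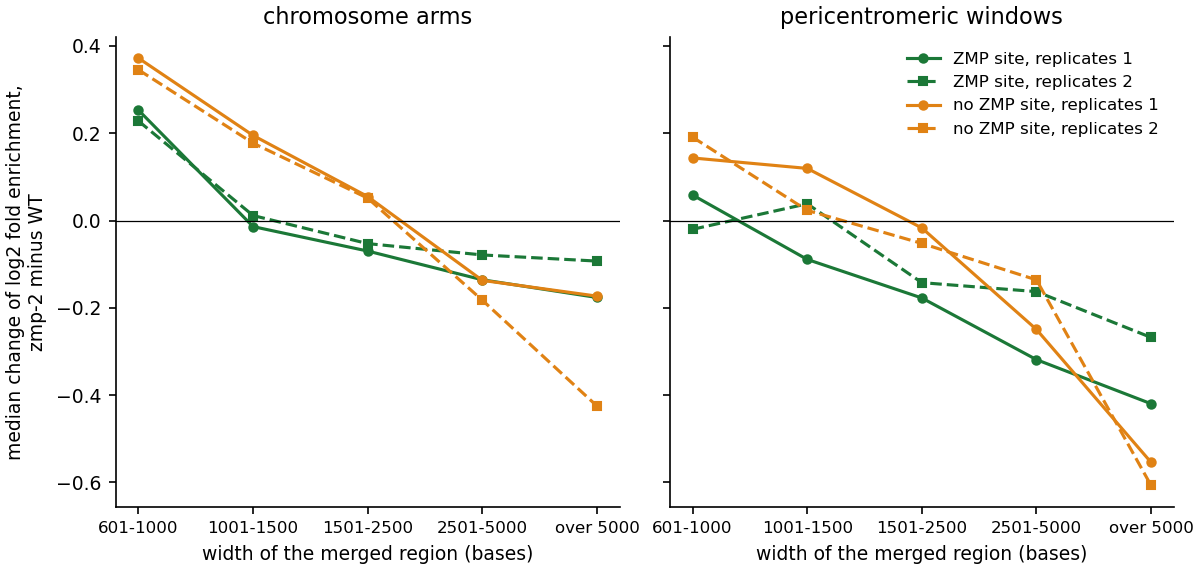
Median change of log2 fold enrichment (zmp-2 minus WT, quantile-normalized) by width of the merged region, in arms (left) and pericentromeric windows (right), with and without a ZMP site, for replicates 1 and replicates 2. Above 600 bases the medians fall from each width class to the next in all lines but 1: in pericentromeric regions with a site, replicates 2 are at -0.02 over 600 and up to 1000 bases and at +0.04 over 1000 and up to 1500 bases. The classes up to 600 bases do not keep this order in all lines. The classes without a site over 5000 bases hold 23 arm and 22 pericentromeric regions.

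Rank within each list, which needs no shared scale of enrichment, was compared by compartment. Over all peaks, 26.2% and 28.1% were pericentromeric in zmp-2, against 34.0% and 32.1% in WT, so the shares at a given rank also carry this difference. Among the strongest 10% of peaks by fold enrichment, 8.69% and 10.2% were pericentromeric in zmp-2, against 16.0% and 18.1% in WT. Between 40% and 50% of the way down the list the shares were 15.8% and 18.0% in zmp-2, against 30.6% and 20.8% in WT. In the weakest 10% they were 55.8% and 68.7% in zmp-2, against 59.3% and 69.2% in WT. The libraries of each background were on separate sides in the strongest 10%, and in the weakest the shares of the 2 replicates 2 were nearly equal. With lists of equal length the shares of the strongest 10% were 8.69% and 10.97% in zmp-2, against 16.0% and 18.8% in WT. Ranked by p-value, the strongest 10% held 10.5% and 10.9% pericentromeric peaks in zmp-2, against 16.8% and 18.9% in WT. In regions kept in all 4 lists, the median percentile of pericentromeric regions was 39.8 and 47.7 in zmp-2, against 55.8 and 53.9 in WT. Of these regions, 184 of 1012 (18.2%) dropped by more than 20 percentile points in zmp-2 and 33 (3.26%) gained as much, comparing means of the 2 lists. In the arms 259 of 3452 (7.5%) dropped that far and 294 (8.52%) gained. From replicates 1 to replicates 2, 8.10% of pericentromeric regions dropped that far and 10.9% gained, and in the arms 4.72% dropped and 11.9% gained. In lists of equal length, 198 of 845 pericentromeric regions (23.4%) dropped that far in zmp-2 and 29 (3.43%) gained, against 9.03% and 8.50% of 3343 arm regions, so that the order of drops and gains in the arms turned. From replicates 1 to replicates 2 in these lists, 13.96% of pericentromeric regions dropped and 6.63% gained, so drops exceeded gains in that split too. In the arms 9.72% dropped and 9.36% gained. With ranks taken among the 4464 kept regions alone, 16.4% of pericentromeric regions dropped and 3.46% gained. The replicate split of these ranks had 9.68% dropping and 7.91% gaining.

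**Figure D5:**
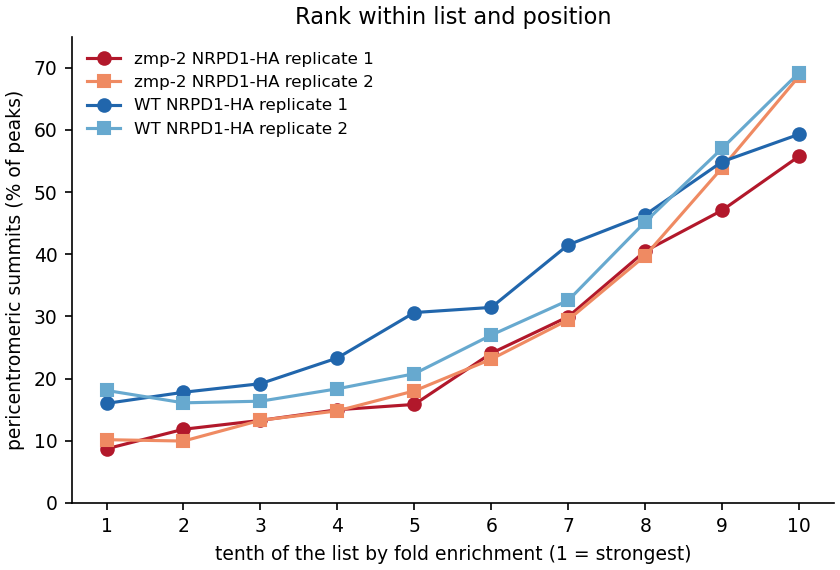
Share of peaks with a pericentromeric summit (% of peaks, y axis) in each successive 10% of a list by fold enrichment (x axis, 1 is the strongest), for each library. In the strongest 10% the zmp-2 libraries are at 8.69% and 10.2% and the WT libraries at 16.0% and 18.1%, and all lists hold more pericentromeric peaks toward the weak end.

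Peak width was also compared. Peaks covered 2.09 and 3.72 Mb of the pericentromeric windows in zmp-2, against 3.92 and 4.85 Mb in WT, and 5.83 and 8.58 Mb of the arms in zmp-2, against 6.41 and 7.49 Mb in WT. Pericentromeric windows thus held 26.4% and 30.2% of the covered bases in zmp-2, against 37.9% and 39.3% in WT. Neither the pericentromeric share nor the pericentromeric covered length overlapped between the backgrounds, and the arm length did. Covered length was larger in replicates 2 in both compartments and both backgrounds. In the 4464 kept regions, limma on log2 covered bases called 0 wider and 0 narrower regions in zmp-2 (0%), with a smallest adjusted p of 0.109 and with 109 wider and 198 narrower at an unadjusted p under 0.05. The replicate split called 0 as well, with 504 at an unadjusted p under 0.05. With each of the 4 libraries left out in turn, limma called 1 to 3 wider and 24 to 61 narrower regions, so that the direction of the calls was mostly narrower in each case. Median change of log2 width was -0.09 in pericentromeric windows (-0.12 and -0.06 in the 2 pairs) and +0.10 in the arms (+0.16 and +0.03).

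Since no width passed the test, the regions with the largest differences are given as values only. At AT5G29070 (chr5:11124189-11133385, pericentromeric), zmp-2 peaks covered 511 and 407 bases, against 8737 and 9022 bases in WT. The WT peaks formed a broad block, while the short peaks of the 2 zmp-2 libraries lay apart, with summits at 11132734 and 11128759. Fold enrichment of these zmp-2 peaks was low, at 1.72 and 2.05, over local backgrounds of 1.23 and 1.52 times the usual value. This region had the smallest width p of the 4464, and its fold enrichment fell by 1.73 ± 0.27 (limma, adjusted p = 0.0351). At the pseudogene AT5G34851 (chr5:13086757-13089302), covered length was 431 and 448 bases in zmp-2, against 2302 and 2546 bases in WT. At AT5G34870, which encodes a zinc knuckle protein (chr5:13179915-13188825), it was 602 and 1291 bases in zmp-2, against 7643 and 8911 bases in WT. All 5 narrowed regions named by the rule were pericentromeric and overlapped ZMP sites. Of all 4464 regions, 22.7% were pericentromeric and 53.9% overlapped a ZMP site. Wide pericentromeric regions mostly had a site: 231 of 253 over 5000 bases and 200 of 251 over 2500 and up to 5000 bases. Over 1500 and up to 2500 bases, 127 of 214 had a site. In the other direction, an intergenic region on chromosome 4 (chr4:5297563-5298944) was covered over 1249 and 1382 bases in zmp-2, against 349 and 378 bases in WT, with an adjusted width p of 0.199. A region downstream of AT1G44830 (chr1:16936083-16937110), the gene of an AP2-type DNA-binding protein, was covered over 883 and 1028 bases in zmp-2, against 349 and 360 bases in WT. The region on chromosome 4 was pericentromeric and that on chromosome 1 lay in an arm. Of the 5 widened regions named by the rule, 2 were pericentromeric and 1 overlapped a ZMP site, and another had 18 copies of its summit sequence in the genome and overlapped a control peak.

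The position of peak edges relative to genes was tested in 3491 kept regions that did not reach a protein-coding 5′ end. By limma on the distance from the nearest 5′ end to the facing edge of the peaks, 0 regions came nearer and 0 went farther in zmp-2 (0%), with a smallest adjusted p of 0.118 and 146 at an unadjusted p under 0.05. The split by replicate number called 7 regions farther (0.201%) and 30 nearer (0.859%) in replicates 2, with 851 at an unadjusted p under 0.05. For the opposite edge, 1 region was farther (0.0286%) and 7 were nearer (0.201%) in zmp-2. Leaving out zmp-2 replicate 2 gave 52 regions farther and 1 nearer. Leaving out WT replicate 1 gave 43 farther and 6 nearer. In the full set more edges passed the test by replicate number, which depth followed, than by background. Individual cases are given as values. Peaks upstream of BZIP27 (chr2:7719801-7721997), a bZIP gene related to FD of the flowering pathway, ended 953 and 828 bases from its 5′ end in zmp-2, against 1801 and 1810 bases in WT. Peaks over AT3G11680 and upstream of DGD1 (chr3:3685658-3687464), the gene of a galactolipid synthase, ended 2170 and 2132 bases away in zmp-2, against 787 and 830 bases in WT. Within GH9B14 (chr4:6142687-6144761), a gene of a cellulase family, the edge lay 242 and 362 bases from the 5′ end in zmp-2, against 1471 and 1401 bases in WT. Each of these differences nearly vanished when 1 library was left out and the regions were merged anew. The fitted difference at BZIP27 was -897 bases, but -67.25 without zmp-2 replicate 2. That at DGD1 was +1360.5 bases, but +34.5 without WT replicate 2. That at GH9B14 was -1116 bases, but -56.5 without zmp-2 replicate 1.

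Regions present in only zmp-2 or only WT are described briefly, as the base for their width, rank and position. There were 422 regions with peaks in both zmp-2 lists and neither WT list (4.55% of 9269) and 338 with peaks in both WT lists and neither zmp-2 list (3.65%). The order of these counts rests on the lengths of the lists, of which zmp-2 replicate 2 was the longest. With each list cut to its 7012 strongest peaks, there were 400 zmp-2-only and 484 WT-only regions. The split by replicate number gave 646 regions in both replicates 2 only and 76 in both replicates 1 only, and 498 and 145 with lists of equal length. The zmp-2-only regions were narrow and in the arms, with a median width of 599 bases, 9.24% pericentromeric, 43.1% within 500 bases of a protein-coding 5′ end and 2.13% on a ZMP site. The WT-only regions had a median width of 972.5 bases, 70.4% were pericentromeric, 13.6% lay near a 5′ end and 54.4% were on a ZMP site. The regions of both replicates 2 had a median width of 831.5 bases, with 28.9% pericentromeric, 25.1% near a 5′ end and 8.82% on a ZMP site. Those of both replicates 1 were 43.4% pericentromeric, with 38.2% on a ZMP site. The ZMP share thus also differed by replicate number. Of regions in all 4 lists 53.9% were on a ZMP site, close to the share of WT-only regions. By rank, zmp-2-only regions were mid-list (median percentile 44.4 and 56.5 in the zmp-2 lists), whereas WT-only regions were near the weak end of the WT lists (23.2 and 21.3). Of the named regions, 1 upstream of CML30 (chr2:6829969-6830912), which encodes a calmodulin-like calcium sensor, had a fold enrichment of 7.43 and 10.8 in zmp-2 and no peak in WT. A region at the 5′ end of AT4G12140, a RING/U-box gene (chr4:7267056-7267907), had 7.21 and 15.8 in zmp-2. A WT-only block of 14639 bases over the pseudogene AT3G32195 and neighbours (chr3:13159258-13173896, pericentromeric) had 6.15 and 5.69 in WT.

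Contact with genes was counted per list. Peaks overlapped 1927 and 2401 protein-coding genes in zmp-2, against 1906 and 1856 in WT, and covered the 5′ end of 936 and 1195 genes in zmp-2, against 976 and 974 in WT. For 5′ ends the groups overlapped, since zmp-2 replicate 1 had the fewest. Genes overlapped in both zmp-2 lists and neither WT list numbered 178, against 88 in both WT lists only, 93 in both replicates 2 only and 47 in both replicates 1 only. Among arm peaks, 14.7% and 16.2% had their summit in the 500 bases upstream of a protein-coding 5′ end in zmp-2, against 12.1% and 13.1% in WT.

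Gene groups were taken from the annotation, and a gene was counted where a region lay over it or within 1 kb of its 5′ end. Of 27444 protein-coding genes 5824 had a region. A region called higher stood at 37 of these (0.635%), a region called lower at 63 (1.08%), a zmp-2-only region at 364 (6.25%) and a WT-only region at 88 (1.51%). Pseudogenes had the opposite order of presence, with zmp-2-only regions at 30 of 3224 (0.931%) and WT-only regions at 268 (8.31%). Falls outnumbered rises at both kinds of gene, and at pseudogenes there were 5 rises (0.155%) and 49 falls (1.52%). Among F-box genes, which encode substrate receptors of ubiquitin ligases, 19 of 196 (9.69%) had a zmp-2-only region and 1 a WT-only region, with 1 rise and 3 falls. An example of a fall was AT3G18340, with 5.72 and 7.76 in zmp-2, against 32.3 and 37.6 in WT (log2 change -1.89 ± 0.21, limma, adjusted p = 0.0186). Among cytochrome P450 and UDP-glycosyltransferase genes, enzymes of specialised metabolism, 9 of 68 (13.2%) had a zmp-2-only region and 0 a WT-only region. The 2 falls were at DWF4 and at CYP79A4P, annotated as a pseudogene of the family, with 4.49 and 6.40 in zmp-2, against 26.9 and 22.1 in WT. Pairs of neighbouring genes can share a region, as UGT73B5 and UGT73B4 did. No set test was run, and these shares are descriptions beside the share over all protein-coding genes.

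Of 40 MADS-box genes with a region, which encode transcription factors of reproductive development, 1 had a fall (2.5%), 3 a zmp-2-only region (7.5%) and 1 a WT-only region (2.5%). Over all protein-coding genes with a region these shares were 1.08%, 6.25% and 1.51%, with rises at 0.635%. The fall was at AGL36 (chr5:9340175-9349034), an imprinted gene of the endosperm and a known target of DNA methylation, with 4.02 and 4.94 in zmp-2, against 19.6 and 21.0 in WT (log2 change -1.90 ± 0.24, limma, adjusted p = 0.0212). The zmp-2-only regions were at AGL23 (8.55 and 10.3), AGL12 (3.66 and 9.85) and AGL83 (4.78 and 7.89), and the WT-only region was at AGL66 (2.42 and 2.10). Among the other reproductive and defence families the counts were small. Disease resistance genes had 1 rise (1.96%) and 3 zmp-2-only regions (5.88%) among 51. The list was taken by product words, and 1 of these 3 genes, AT3G13662, is annotated as dirigent-like. Defensin-like genes had 1 rise (2.63%) and 3 genes with zmp-2-only regions (7.89%) among 38. The rise at the first list lay upstream of AT5G45000 (chr5:18164602-18165315), with 8.80 and 14.1 in zmp-2, against 5.19 and 4.43 in WT (+1.33 ± 0.24, limma, adjusted p = 0.0482). The rise at the other lay near AT4G22217 (chr4:11756527-11758361), with 14.7 and 19.6 in zmp-2, against 11.4 and 7.52 in WT (+1.36 ± 0.22, adjusted p = 0.0364). Pectin and cell wall enzymes had 6 zmp-2-only (5.0%), 1 WT-only (0.833%) and 1 falling region (0.833%) among 120 genes. Receptor-like kinases had 3 zmp-2-only (8.11%) and 2 WT-only (5.41%) among 37, and S1 self-incompatibility proteins 2 zmp-2-only (5.56%) among 36. Of 82 tRNA genes, 1 had a rise (1.22%), 2 a fall (2.44%), 3 a zmp-2-only (3.66%) and 0 a WT-only region. Of 863 lncRNA genes, 5 had a rise (0.579%), 11 a fall (1.27%), 41 a zmp-2-only (4.75%) and 18 a WT-only region (2.09%). These shares are descriptions, and several of the zmp-2-only shares lay near the 6.25% of all protein-coding genes.

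The genes of the RdDM pathway themselves were also examined. Of 28 matched genes 9 had a region and 0 had a called change. NRPD2A, which encodes the subunit that Pol IV and Pol V share, had a zmp-2-only region just upstream (4.35 and 12.7), as had DCL3 (2.21 and 3.58). A WT-only region of 401 bases lay in an intron of NRPD1 with a fold enrichment of 1.80 and 1.73 in WT. Its background exceeded that of most peaks, with a ratio of 10.3 and 10.4. At NRPD1 (NRPD1A, AT1G63020), a region over the promoter (chr1:23362311-23363250) had a fold enrichment of 4.22 and 9.003 in zmp-2, against 5.04 and 6.78 in WT (+0.11 ± 0.36, adjusted p = 0.934). The groups overlapped there. The local background there, which the caller takes from the control DNA, was 2.87 and 2.99 times the usual background in zmp-2, against 8.10 and 6.86 times in WT. The transgene carries the same promoter, and its number of copies in each line is not given in the sources used here. The part of this difference in the comparisons of the backgrounds was not tested. ZMP itself (AT5G63700) and AT2G20465 had no region in any of the 4 lists. The lncRNA gene AT3G07775 had a zmp-2-only region (chr3:17520116-17520833) with a fold enrichment of 14.5 and 17.5, at percentiles of 98.0 and 98.2. AT5G43755, annotated as similar to a non-LTR reverse transcriptase, had a zmp-2-only region with 7.03 and 10.3. The region beside LCR11 (AT4G11485), which encodes a small cysteine-rich protein of the defensin type, was at 6.99 and 8.57 in zmp-2, against 8.19 and 5.60 in WT (+0.30 ± 0.24, adjusted p = 0.639), with overlapping groups.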

How the data were processed

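Paired reads were trimmed (Trim Galore 0.4.3), aligned to TAIR10 (Bowtie2 2.2.9) and peaks called with input as control (MACS2 2.2.6), per the submitters' processing notes and the study's methods. Which input was the control of a given library is not given in the sources used here. There is 1 deposited list per immunoprecipitate. Each peak has a position, a score, the authors' fold enrichment (a linear ratio at the summit), and deposited −log10 p-values and −log10 q-values, with q of 0.05 or less. The lists hold no read counts. The caller's ratio adds 1 to pileup and background. Pileups and backgrounds were solved from ratio and p-value, and rebuilt p within 1% for 100% of peaks. The background shared by most peaks stood for depth and limits which weak regions are called. It follows the smaller of immunoprecipitate and input.

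Groups came from the labels. Set A control lists have an empty antibody label. Coordinates are 1-based, and 4 peaks on organelle genomes were left out. A region's value in a list was its highest peak. Width was the bases covered by the list's peaks in the region. Pericentromeric windows were runs of 100 kb windows with protein-coding gene density (mean over 1 Mb) under 50% of the chromosome's median. Summit sequence copies were counted with blastn 2.17.0 in windows of 200 bases (at least 180 aligned). Genes came from RefSeq TAIR10.1. Transposon annotation was not used here. Tests used limma 3.58.1 in R 4.3.3, without a replicate block, and Python 3.11.15 for the rest. In simulated data for the enrichment comparison over 4464 regions, the fit recovered 177 of 200 regions changed by 2 on the log2 scale, with 4 false calls, and 0 of 200 changed by 1. Changes of 1 on the log2 scale were therefore not called by this fit without a block. The simulation drew the spread of each library independently, whereas the real change between replicates was alike in both backgrounds (r = 0.713). It does not show what a fit with a replicate block can call.

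Named regions were the 8 largest rises and falls among called regions with separated libraries, the 5 most widened and narrowed, 3 edges nearer and farther, and 4 regions per background after the first 3 by rank. ZMP, NRPD1, AT3G07775, AT5G43755, AT2G20465, AT4G11485 and list members with a called region were named whatever their values. The 4 regions with printed sequences were chosen after their values were seen. The members and lists were chosen with earlier results of these data known. Alternatives covered normalization, measure, thresholds, overlap, list length, control peaks, each library left out and a replicate block.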

Additional observations from a re-analysis of the deposited data

How the results depend on the processing

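The counts of regions with changed enrichment depended on the processing. The 94 called regions kept their direction wherever an alternative measured them (31 of the 94 with the 50% overlap, 52 with exactly 1 peak per list, 64 to 94 otherwise). The alternatives reuse the same lists, and the 4 libraries were separated after normalization in 29 of 29 rises and 65 of 65 falls. Their direction was therefore largely fixed by the selection. This count of directions, and lists of equal length for rank, were chosen after seeing the data. Higher and lower regions numbered 29 and 65 by limma with quantile normalization. They numbered 32 and 168 with median centring (89 of the 94 calls shared), 15 and 41 on the summit pileup, 7 and 22 where each list had exactly 1 peak, and 0 and 0 where the highest peaks overlapped by 50% (2719 regions, 357 at an unadjusted p under 0.05, smallest adjusted p 0.0608). Leaving out 1 library gave 0 to 16 higher and 0 to 60 lower regions, and both counts were 0 without zmp-2 replicate 2 (499 at an unadjusted p under 0.05). Other settings kept the counts within 1.5 times, including a requirement, chosen after seeing the data, that the 4 summits lie within 500 bases (26 and 64). For width, leaving out 1 library gave 1 to 3 wider and 24 to 61 narrower regions, against 0 and 0. For the edge facing the 5′ end it gave 0 to 52 farther and 0 to 6 nearer, and lists of equal length gave 9 farther. A group left with 1 library was assumed to vary like the other group. The compartment contrast was -0.14 with the 50% overlap and -0.28 to -0.17 with 1 library left out. With lists of equal length, zmp-2-only regions numbered 400, WT-only regions 484 and those of both replicates 1 only 145. The difference in the pericentromeric share of the strongest 10% was -7.62 percentage points by fold enrichment and -7.16 by p-value. The causes of these shifts were not tested.

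The replicate numbers are shared, but the labels do not say that a number marks a common batch. With the replicate number as a block, limma called 725 higher and 641 lower regions, among them all 94, and 34 wider and 141 narrower regions. It called 0 edges (234 at an unadjusted p under 0.05). The change in the 2 same-numbered pairs had r = 0.795 over regions, and the contrast with the block was -0.23. Depth goes with the number, and only 2 pairs exist.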

Other observations

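A further 5 regions with a changed enrichment were chosen after their values were seen. In the region over the lncRNA gene AT1G04923 and upstream of AT1G12040 (chr1:4067801-4069747), which encodes the cell wall protein LRX1 of root hairs, fold enrichment was 4.67 and 7.86 in zmp-2, against 34.0 and 32.6 in WT (log2 change -2.01 ± 0.23, limma, Benjamini-Hochberg adjusted p = 0.0186). The pericentromeric region over the pseudogene AT3G30183 (chr3:11814983-11825166), whose nearest 5′ end is that of a brassinosteroid oxidase gene, AT3G30180, had 2.33 and 2.72 in zmp-2, against 12.8 and 12.2 in WT (-2.20 ± 0.25, adjusted p = 0.0186). At the 3′ end of AT2G26740 (chr2:11391689-11393012), a soluble epoxide hydrolase gene, the values were 2.32 and 2.32 in zmp-2, against 12.5 and 11.02 in WT (-2.20 ± 0.25, adjusted p = 0.0186). Over AT1G48910 (chr1:18093256-18096979), annotated as a flavin-containing monooxygenase, they were 6.52 and 10.4 in zmp-2, against 25.1 and 31.9 in WT (-1.30 ± 0.24, adjusted p = 0.0480). In the other direction, a region upstream of AT5G24380 (chr5:8322115-8323014), which encodes a metal transporter of the YELLOW STRIPE family, had 5.51 and 6.93 in zmp-2, against 2.54 and 2.02 in WT (+1.52 ± 0.24, adjusted p = 0.0356). The groups did not overlap in any of these 5 regions. After normalization this held for 29 of 29 called rises and 65 of 65 called falls, so it adds nothing to the calls.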
